A study of Drosophila melanogaster with 9 samples.

Results

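The gustatory receptor (Gr) genes and the tuning ionotropic receptor (Ir) genes were examined in RNA-Seq libraries of the larval dorsal organ of *Drosophila melanogaster*. Members were chosen by symbol alone: every gene named Gr or Ir with a number and 1 letter was taken, and the co-receptor and thermosensory or hygrosensory genes *Ir21a*, *Ir25a*, *Ir93a*, *Ir68a*, *Ir8a* and *Ir76b* were left out. This gave 120 genes of 17421 in the files, 60 Gr genes and 60 Ir genes. The libraries compared 4 wild-type samples with 5 *Orco* mutant samples, each of 20 dorsal organs from larvae of the third instar, isolated independently and made into 1 library apiece. Larvae of both genotypes were w1118. Wild-type larvae carried Orco-Gal4 and UAS-mCD8-GFP on both copies of the chromosome. *Orco* mutant larvae carried the same driver and reporter and were orco1/orco1, homozygous for a null allele of the co-receptor of the odorant receptors. All 9 libraries therefore shared the driver and the membrane-bound GFP, which the driver expresses in the olfactory receptor neurons (ORNs). Organs were picked by hand under GFP, so each sample held ORNs, their support cells and any attached tissue, and Gr or Ir RNA could come from any of them. In such bulk samples fewer cells of a type and less RNA per cell cannot be told apart.

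Gustatory receptors are membrane proteins best known from taste neurons, where sets of them detect sugars or bitter compounds, and a pair of them forms the carbon dioxide receptor. Ionotropic receptors are related to ionotropic glutamate receptors. A tuning Ir sets which acid, amine, salt, humidity or other cue a neuron detects, and it forms a channel together with a broadly expressed co-receptor such as *Ir25a*, *Ir76b* or *Ir8a*. The larval head carries the dorsal organ, whose dome holds the ORNs, and taste organs close to it. In adult flies many of these receptors are found in small numbers of sensory neurons.

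The totals ranged from 4432832 to 7005190 counts in wild-type libraries and from 4090489 to 9157628 in *Orco* mutant libraries, of which rRNA genes took 33.3% to 53.8%. The targeted gene followed its label in every library, with 1025, 1750, 1819 and 1784 *Orco* counts in wild-type and 1, 16, 0, 3 and 0 in *Orco* mutant libraries. All 8 neuron markers on the list were detected in all 9 libraries, and their summed level was 273 to 848 CPM in wild-type and 284 to 975 CPM in *Orco* mutant libraries. CPM here are library-size scaled counts (counts per 1000000, with TMM scaling). Markers of other cell types were present in both genotypes, with summed levels of 5352 to 12460 and 3011 to 6173 CPM for support cells, 236 to 1957 and 76.0 to 1345 CPM for muscle, and 542 to 1378 and 198 to 5590 CPM for cuticle and epidermis (wild-type and *Orco* mutant). Glia markers summed to 1156 to 1691 and 1319 to 2533 CPM, hemocyte markers to 0.846 to 57.0 and 3.15 to 151 CPM, and fat body markers to 13.6 to 206 and 2.79 to 199.7 CPM. Each list had 8 genes, and of these only the cuticle gene *TwdlF* was at 0 in all 9 libraries, with 1 hemocyte and 1 fat body gene not found by symbol. *Obp56d* made up most of the support cell sum, with 5166 to 11801 CPM in wild-type and 2667 to 5713 CPM in *Orco* mutant libraries. *Gs2* made up most of the glia sum. These 2 sums therefore do not stand for their lists as a whole. The median log2 fold change of the tested genes was 0.38 on the support cell list and -0.24 on the glia list. None of the tested genes on any of these lists passed as higher or lower. Their part in the receptor values was not tested. Genes varied widely between samples of 1 genotype, with a common biological coefficient of variation of 0.996. *Orco* mutant library 3 had the fewest genes detected (6790) and library 4 the most (10935), against 8427 to 10148 in the other libraries, and results that rest on either are given with and without it.

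Gr genes were detected more widely than Ir genes, and neither family was present as a whole. A gene is called detected at 1 or more counts. In total 46 of the 60 Gr genes and 30 of the 60 Ir genes had a count in any library. Together this is 76 of 120 members, or 63.3%, against 73.2% of all genes in the files. Without *Orco* mutant library 4, 39 Gr and 26 Ir genes had a count, or 65 of 120 members, against 12221 of all 17421 genes. A count of 0 in 1 library allows up to 3 counts, or 0.246 to 0.827 CPM depending on the library, so an undetected gene may still be present below that level. These limits cover counting error only, since the libraries carry no molecular identifiers.

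The number of Gr genes per library was 15, 12, 8 and 14 in wild-type (12.25 ± 3.10, SD, n = 4) and 13, 22, 6, 33 and 10 in *Orco* mutant libraries (16.8 ± 10.8, SD, n = 5). The genotypes overlapped, and the lowest and the highest number both came from *Orco* mutant libraries. For Ir genes the numbers were 8, 2, 4 and 5 in wild-type (4.75 ± 2.50, SD, n = 4) and 8, 10, 1, 19 and 3 in *Orco* mutant libraries (8.20 ± 7.05, SD, n = 5). Here too the range of the mutant libraries enclosed that of the wild-type libraries. Without *Orco* mutant library 4 the mutant means were 12.75 Gr genes and 5.50 Ir genes, close to the wild-type means. Without library 3, which had the fewest of both, they were 19.5 and 10. At a minimum of 10 counts the Gr numbers were 10, 6, 7 and 12 in wild-type and 9, 15, 4, 11 and 6 in *Orco* mutant libraries. The same minimum left 4, 1, 2 and 3 Ir genes in wild-type and 5, 6, 1, 5 and 3 in *Orco* mutant libraries, so that library 4 no longer had the most genes of either family.

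**Figure D1:**
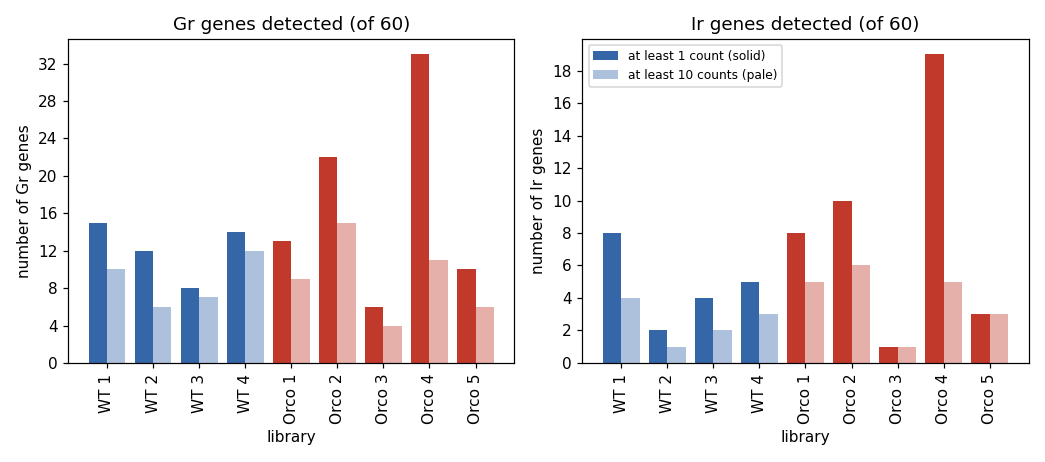
Number of Gr genes (left) and Ir genes (right) detected in each library, at 1 or more counts (solid bars) and at 10 or more counts (pale bars); blue is wild-type (WT) and red is *Orco* mutant (Orco). The 33 Gr and 19 Ir genes of *Orco* mutant library 4 drop to 11 and 5 at 10 counts.

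In *Orco* mutant library 4, 52 members were detected, many at low counts. Of these, 28 had 1 to 5 counts (53.8%), while in the other 8 libraries 2 to 6 members did (18.75% to 35.7%). Over all detected genes, 16.8% in library 4 had 1 to 5 counts, within the range of 9.64% to 20.5% over the 9 libraries. The median count of a detected member was 4 in this library and 10 to 38 in the others. Of the 28 members seen in a single library, 11 were seen only in this one, beside 527 of 1615 such genes over all genes. Among the 20 members seen in exactly 2 libraries 14 included it (70.0%), beside 58.8% of all genes seen in exactly 2 libraries.

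**Figure D2:**
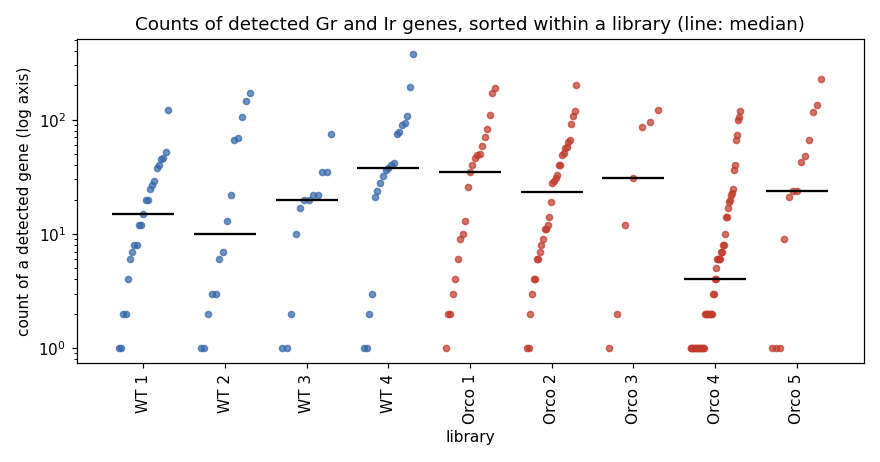
Count of every detected Gr and Ir gene in each library on a log axis, sorted within the library, with the median as a line (blue, wild-type; red, *Orco* mutant). The median is 4 counts in *Orco* mutant library 4 and 10 to 38 counts in the other libraries.

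Most members came and went between samples of 1 genotype. Only *Gr33a* was detected in all 9 libraries, and no Ir gene was. Of the Gr genes, 15 were seen in 1 library, 12 in 2 and 18 in 3 to 8, and of the Ir genes 13, 8 and 9. Of all 12748 genes with a count, 1615 were seen in 1 library (12.7%), 857 in 2, 5092 in 3 to 8 and 5184 in all 9. By genotype, 21 Gr genes were seen in both, 4 in wild-type only and 21 in *Orco* mutants only. The Ir genes divided into 13, 2 and 15. These mutant-only numbers depended on *Orco* mutant library 4, without which 20, 5 and 14 Gr genes and 7, 8 and 11 Ir genes were in the respective classes. None of the 6 numbers changed without library 3. Over all genes, the same classes held 10458, 465 and 1825 of the 12748 genes with a count. Without *Orco* mutant library 4 they held 10185, 738 and 1298 of 12221. Most of the Gr and Ir genes had too few counts for the test described below. Among the Gr genes with a count that were left out of it, 55.3% were seen in mutants only and 10.5% in wild-type only, and among such Ir genes 51.7% and 6.90%. Over all genes with a count that were left out of the test, the background was 39.7% and 10.1%, and over all genes with a count it was 14.3% and 3.65%. The 4 wild-type libraries hold fewer counts in all than the 5 mutant libraries, and over all genes too the mutant-only class was the larger one. The part of depth and library number in the shares of the members was not tested.

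Where a member had counts, most of them usually sat in 1 library. Of the 51 members with at least 10 counts in all (32 Gr and 19 Ir), the library with the highest level held a median of 82.2% of a Gr gene's CPM summed over libraries and 83.2% of an Ir gene's. More than 50% came from 1 library in 24 of these Gr genes (75.0%) and 16 of these Ir genes (84.2%). No background over all genes is given for these shares. Smart-seq2 amplifies cDNA from small inputs, and counts from 1 library can be copies of few molecules. Whether this holds for these genes was not tested.

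**Figure D3:**
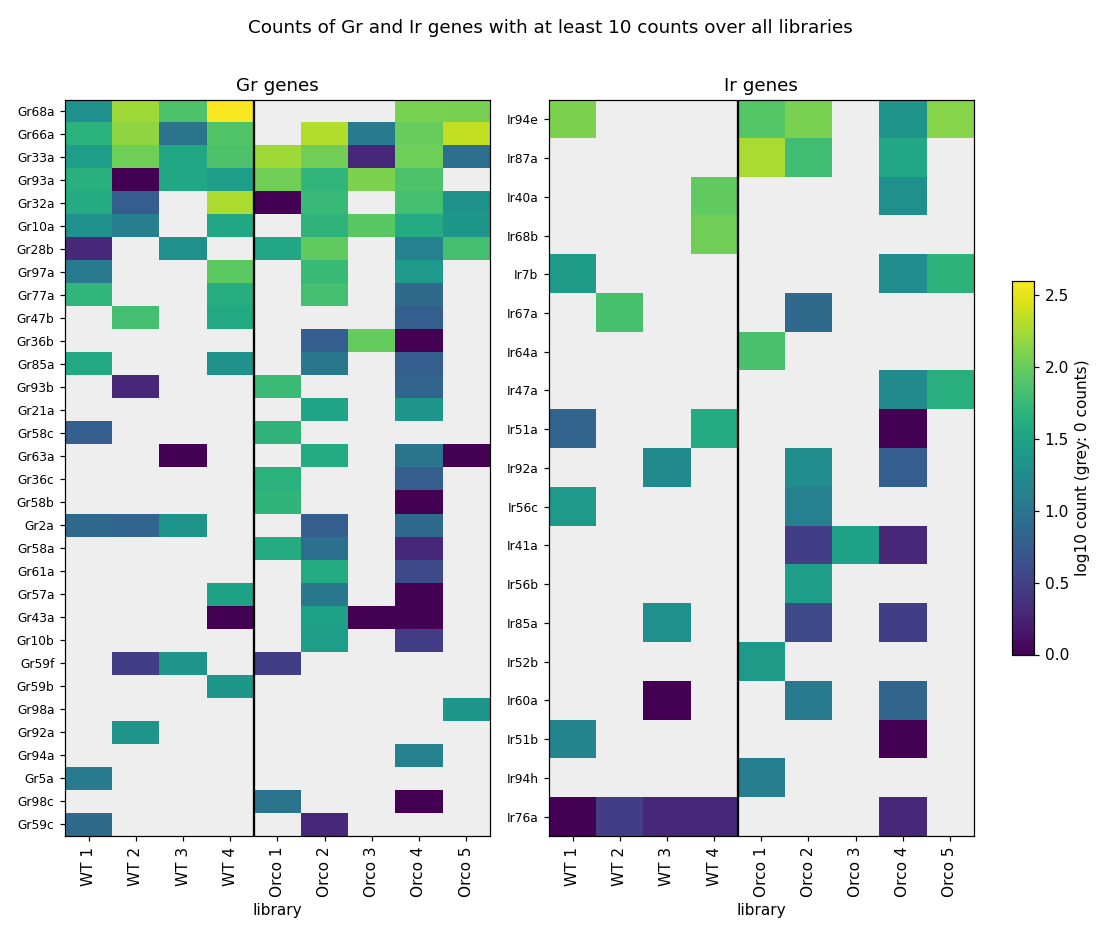
Counts of the 32 Gr genes (left) and 19 Ir genes (right) with at least 10 counts over all libraries, in each of the 4 wild-type (WT) and 5 *Orco* mutant (Orco) libraries; colour is log10 of the count and grey is 0 counts. The upper Gr rows are filled in most libraries of both genotypes, while most other rows hold 1 to 3 filled cells.

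Summed over the family, the Gr level was 75.7, 96.5, 46.5 and 134.9 CPM in the wild-type libraries and 70.3, 74.6, 87.9, 83.8 and 121.7 CPM in the *Orco* mutant libraries. The means of 88.4 ± 37.1 CPM (SD, n = 4) and 87.7 ± 20.3 CPM (SD, n = 5) lay far closer to each other than the libraries of 1 genotype did. The summed Ir level was 45.3, 12.8, 8.46 and 31.7 CPM in wild-type and 48.7, 22.6, 8.54, 18.3 and 55.8 CPM in *Orco* mutant libraries, with means of 24.6 ± 17.1 (SD, n = 4) and 30.8 ± 20.4 (SD, n = 5). The tuning Ir genes thus differed between libraries of 1 genotype by more than their means differed between genotypes. A few genes made up much of each sum. *Gr68a*, *Gr66a*, *Gr33a*, *Gr93a* and *Gr32a* held 63.7% of the mean Gr level over the 9 libraries. Of the mean Ir level, *Ir94e*, *Ir87a*, *Ir7b*, *Ir40a* and *Ir68b* held 65.3%, and *Ir94e* alone 33.0%. For scale, the co-receptor *Orco* reached 289 ± 74.2 CPM (SD, n = 4) in wild-type organs, more than all 60 Gr genes together.

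No Gr or Ir gene differed between the genotypes in the test. Only 8 Gr genes and 1 Ir gene (*Ir94e*) passed the filter on low counts and entered the quasi-likelihood test of edgeR, in a fit over 8160 genes with Benjamini-Hochberg adjusted p-values. None of the 9 passed at an adjusted p under 0.05, and all had an adjusted p of 0.997. The background was low as well: 0.0368% of all tested genes passed, 0 higher and 3 lower in *Orco* mutants. None of the 9 had an unadjusted p under 0.05 either (background 4.96%), and the smallest was 0.218, for *Gr28b*. DESeq2 called none of the 9 (background 0.755%, 61 of 8079 genes). With no filter on low counts, 76 members entered the edgeR fit and again 0 passed, with a smallest adjusted p of 0.591 (background 0.0392%). In that fit 15 members had an unadjusted p under 0.05 (background 7.52%), and all of them but *Ir51a* had counts in 1 genotype only, where the fitted change depends on the prior count. The CPM ranges of the genotypes overlapped for all 9, as they did for all but 3.87% of all tested genes. The replicate number of the labels, used as a block, gave 0 calls too.

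The missing calls came with wide intervals and do not show equal levels. Of the 8 tested Gr genes, 4 had a higher fitted level in *Orco* mutants and 4 a lower one, with a median log2 fold change of 0.17 (all tested genes, -0.00). For none of the 9 did the 95% interval of the fold change lie within 2-fold either way, as it did for 441 of the 8160 genes. The median width of the interval was 6.99 log2 units for the tested Gr genes and 4.19 for all tested genes. Of the 9, 8 were at 0 counts in at least 1 library, against 37.1% of all tested genes.

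**Figure D4:**
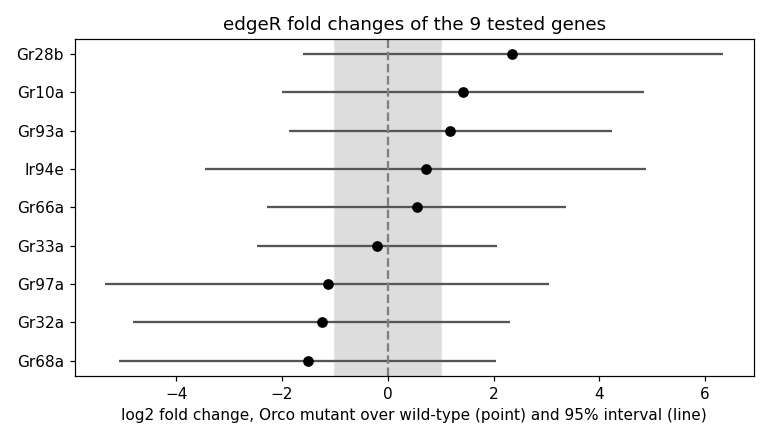
Log2 fold change of *Orco* mutant over wild-type (points) with its 95% interval (lines) for the 8 Gr genes and *Ir94e* tested by edgeR; the grey band marks changes of less than 2-fold. Every interval crosses 0 and reaches beyond the band, and the points run from -1.51 (*Gr68a*) to 2.35 (*Gr28b*).

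The bitter receptor genes were the most regularly detected group. The list held *Gr32a*, *Gr33a*, *Gr39a*, *Gr66a* and *Gr89a*, which adult bitter-sensing taste neurons share widely. The members detected numbered 3, 3, 2 and 3 in wild-type and 2, 3, 2, 4 and 3 in *Orco* mutant libraries, so that each library had at least 2 of them. Their summed counts were 115, 259, 45 and 345 in wild-type and 171, 367, 14, 273 and 258 in *Orco* mutant libraries. *Gr66a*, widely used to mark bitter neurons (chromosome 3L, 8305336 to 8306980, Release 6), had 46, 147, 10 and 78 counts in wild-type and 0, 202, 12, 99 and 228 in *Orco* mutant libraries. It was absent from *Orco* mutant library 1 and highest in library 5, so the mutant libraries lay on both sides of all wild-type values. The mean was 12.1 ± 10.03 CPM for wild-type (SD, n = 4) and 17.8 ± 22.7 CPM for *Orco* mutants (SD, n = 5), a log2 fold change of 0.55 (SE 1.31, 95% interval -2.28 to 3.38). The sign of this change rested on *Orco* mutant library 5, without which it was -0.58.

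*Gr33a*, needed with *Gr66a* for the sensing of many bitter compounds (2L, 12138008 to 12140392), was the only member found in every library. It had 29, 106, 35 and 75 counts in wild-type and 170, 108, 2, 106 and 9 in *Orco* mutant libraries. The wild-type libraries fell inside the mutant range, whose low end was set by libraries 3 and 5. The mean level was 10.6 ± 5.63 and 9.15 ± 8.27 CPM (SD, n = 4 and n = 5), with a log2 fold change of -0.21 (SE 1.05, 95% interval -2.48 to 2.07) that turned positive without wild-type library 2 (0.22) or without *Orco* mutant library 3 (0.09) or 5 (0.04). *Gr32a*, a bitter receptor that also takes part in male courtship behaviour of adults (2L, 11114014 to 11115823), had 40, 6, 0 and 192 counts in wild-type and 1, 57, 0, 66 and 21 in *Orco* mutant libraries. Wild-type library 4 held the top value and each genotype had 1 library at 0. The log2 fold change was -1.25 (SE 1.64, 95% interval -4.81 to 2.31), and it became 0.14 without wild-type library 4. Of the 1623 exon bases of *Gr32a*, 164 are shared with *CG6230* on the opposite strand. *Gr39a* had 2 counts, both in *Orco* mutant library 4, and *Gr89a* had none.

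**Figure D5:**
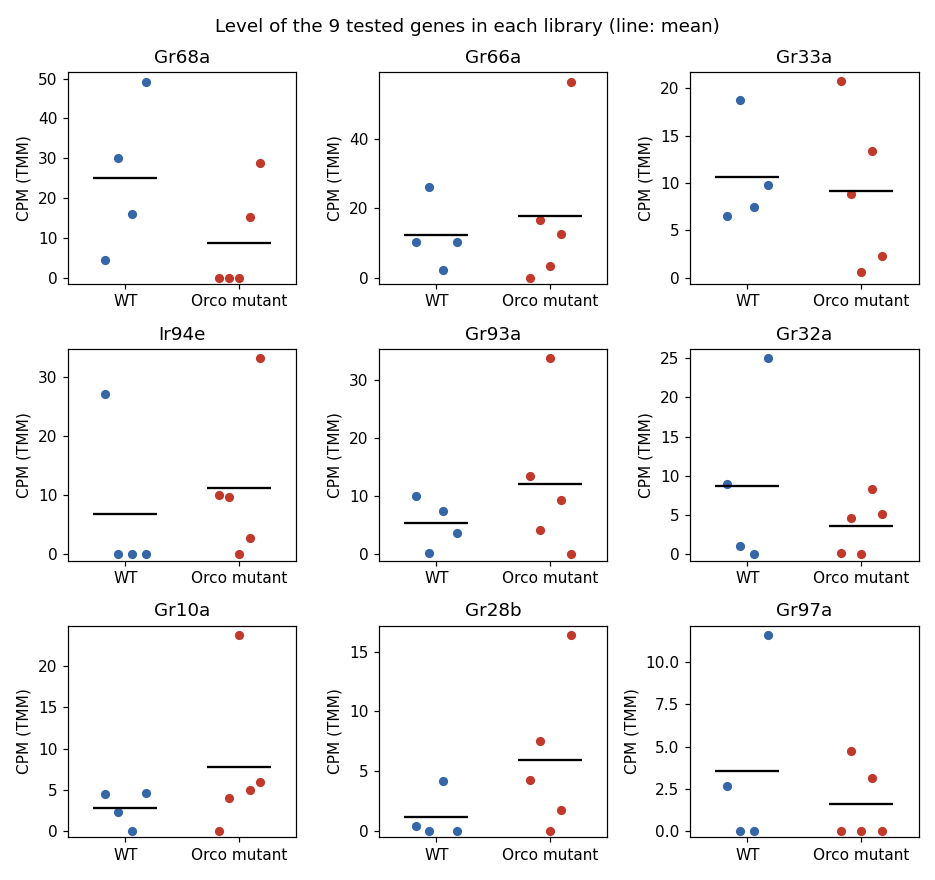
Level of the 9 tested genes in each library, in CPM after TMM scaling on a linear axis from 0, for wild-type (blue, 4 libraries) and *Orco* mutant (red, 5 libraries); the line is the mean. In every panel the points of the genotypes overlap, and in every panel but that of *Gr33a* at least 1 library is at 0.

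*Gr93a*, required in adult taste neurons for the response to caffeine, lies on 3R (21832503 to 21834013) and was seen in 8 of 9 libraries. Its counts were 45, 1, 35 and 28 in wild-type and 110, 51, 122, 74 and 0 in *Orco* mutants. Both genotypes held a library at or near 0, and the other mutant libraries had more counts than any wild-type library. In CPM the ranges overlapped, with means of 5.32 ± 4.32 (SD, n = 4) and 12.1 ± 13.1 (SD, n = 5) and a log2 fold change of 1.19 (SE 1.41, 95% interval -1.86 to 4.24). Its neighbours were less regular. *Gr93b* had 2 counts in wild-type library 2, 59 in *Orco* mutant library 1 and 7 in library 4, *Gr93d* had 7 counts in *Orco* mutant library 2, and *Gr93c* had none.

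*Gr68a* had the highest mean level of all members in wild-type organs, and in 3 of 5 *Orco* mutant libraries it had no count. This receptor is known from adult males, where it takes part in courtship. It had 20, 170, 75 and 379 counts in wild-type and 0, 0, 0, 120 and 116 in *Orco* mutant libraries. All wild-type libraries held it, while the mutant libraries split into 3 at 0 and 2 near the middle of the wild-type range. Wild-type organs averaged 24.9 ± 19.3 CPM (SD, n = 4) and *Orco* mutant organs 8.78 ± 12.9 CPM (SD, n = 5), a log2 fold change of -1.51 (SE 1.64, 95% interval -5.08 to 2.05) that kept its sign without any 1 library (-2.71 to -0.94). *Gr68a* (3L, 11751305 to 11752474) lies within *loaf* on the opposite strand and shares no exon base with it. The *loaf* counts were 54, 372, 73 and 1 in wild-type and 96, 152, 248, 161 and 179 in *Orco* mutants, so the libraries without *Gr68a* reads did have *loaf* reads. The Smart-seq2 protocol does not mark strand, so reads from overlapping genes on opposite strands cannot be separated by it.

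*Gr28b* and *Gr28a* are neighbours on 2L, and *Gr28b* is known for roles in the sensing of heat and light. *Gr28b* (7454826 to 7462247) had 2, 0, 20 and 0 counts in wild-type and 35, 92, 0, 14 and 66 in *Orco* mutant libraries. All but 1 of the mutant libraries held 14 or more, a number that 1 wild-type library reached. Mean levels were 1.17 ± 2.05 and 5.99 ± 6.45 CPM (SD, n = 4 and n = 5), and the log2 fold change of 2.35 (SE 1.83, 95% interval -1.60 to 6.34) was the largest upward change of the 9 tested members. It did not pass the test. *Gr28a* had 1 count in wild-type library 2 and 1 in *Orco* mutant library 5.

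The libraries that held *Gr28b* did not hold the same transcript. Of its 5 transcripts in the files only RA and RC had counts. RA accounted for the 20 counts of wild-type library 3 and the 35 of *Orco* mutant library 1. RC accounted for the 2 counts of wild-type library 1, the 92 of *Orco* mutant library 2 and the 66 of library 5. *Orco* mutant library 4 was divided between them (9.79 and 4.21 estimated counts). A similar division was seen in *Gr97a* (3R, 26965124 to 26966485), a receptor without a well-known ligand. It had 12, 0, 0 and 89 counts in wild-type and 0, 58, 0, 25 and 0 in *Orco* mutants, with means of 3.56 ± 5.48 and 1.58 ± 2.24 CPM (SD, n = 4 and n = 5). Its log2 fold change was -1.14 (SE 1.93, 95% interval -5.34 to 3.04), and 0.85 without wild-type library 4. Nearly all wild-type counts of *Gr97a* belonged to transcript RA (11.95 and 88.91) and all mutant counts to RB (58 and 25). Each transcript was thus carried by 2 libraries of 1 genotype, and no test was run on transcripts. Both splits were noticed after the values were seen.

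*Gr10a* could not be measured apart from an odorant receptor gene. All 2819 of its exon bases on X (11413467 to 11417422) are shared on the same strand with *Or10a*, and both genes had the same count in each of the 9 libraries. The counts were 20, 13, 0 and 36 in wild-type and 0, 49, 86, 40 and 24 in *Orco* mutant libraries, 7 of which were above 0, with a total of 268. Before rounding, the deposited values of both genes were 35.5 in wild-type library 4 and 85.5, 39.5 and 23.5 in *Orco* mutant libraries 3, 4 and 5. Means of 2.86 ± 2.19 CPM (SD, n = 4) and 7.74 ± 9.21 CPM (SD, n = 5) gave a log2 fold change of 1.42 (SE 1.58, 95% interval -1.997 to 4.85). The mutant mean rested largely on library 3, at 23.7 CPM, without which the log2 fold change was 0.38. These are the values listed under each of the 2 genes, not their sum, and they cannot be assigned to either gene alone. The Gr detection numbers and summed Gr levels include those of *Gr10a*. *Gr10b* next to them had 29 counts in *Orco* mutant library 2 and 3 in library 4.

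Genes of the carbon dioxide receptor were nearly confined to a pair of *Orco* mutant libraries. *Gr21a* and *Gr63a* encode its 2 subunits, and in larvae both are expressed in a neuron of the neighbouring terminal organ. *Gr21a* (2L, 780482 to 782885) had 33 counts in *Orco* mutant library 2 and 23 in library 4, and 0 in the other 7 libraries. *Gr63a* (3L, 3894999 to 3896603) had 40 and 10 counts in the same libraries, with 1 count in wild-type library 3 and 1 in *Orco* mutant library 5. The subunits thus appeared together, and the libraries that held them are also those with the most genes detected. Neither had enough counts for the test.

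The sugar receptor list was almost empty. *Gr43a*, a fructose receptor (2R, 7390869 to 7393161), had 31 counts in *Orco* mutant library 2 and 1 each in wild-type library 4 and *Orco* mutant libraries 3 and 4. The 31 counts belonged to transcript RC and the single counts to RA. *Gr61a* had 40 counts in *Orco* mutant library 2, as transcript RC, and 4 in library 4, as RB. *Gr5a*, a trehalose receptor of adults, had 12 counts in wild-type library 1 alone. Of its 1490 exon bases, 1108 are shared with an antisense RNA gene, which had 0 counts in that library. *Gr43a* shares 155 of its 1527 exon bases with *Dhx15* on the opposite strand. Of the 6 clustered *Gr64* genes, *Gr64a* had 1 count and *Gr64b* to *Gr64f* had none after rounding. *Gr64b* and *Gr64c* share all of their 2858 exon bases, and before rounding each had a total of 0.5. In all, 4 of 9 sugar receptor genes were detected, beside 4 of 5 bitter receptor genes, both carbon dioxide receptor genes, both *Gr28* genes and 34 of 42 other Gr genes. Without *Orco* mutant library 4 the bitter and the other Gr genes numbered 3 and 28, and the rest did not change. *Orco* mutant library 2 was the main source of *Gr43a*, *Gr61a*, *Gr21a* and *Gr63a* alike.

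Other Gr genes were led by members with counts in both genotypes. *Gr77a* (3L, 20737569 to 20739430) had 52 counts in wild-type library 1, 42 in wild-type library 4, 66 in *Orco* mutant library 2 and 8 in library 4. It lies within *CG13252* on the opposite strand and shares no exon base with it, and *CG13252* had 87, 2, 5 and 204 counts in wild-type and 4, 121, 13, 47 and 159 in *Orco* mutants. The 4 libraries with *Gr77a* were thus among the 5 with the most *CG13252* counts, and the part of this gene in the *Gr77a* counts was not tested. *Gr47b* had 66 and 38 in wild-type libraries 2 and 4 and 6 in *Orco* mutant library 4. *Gr85a* had 38 and 21 in wild-type libraries 1 and 4 and 11 and 6 in *Orco* mutant libraries 2 and 4. *Gr77a*, *Gr47b* and *Gr85a* were all at 0 in *Orco* mutant libraries 1, 3 and 5. *Gr2a* had 8, 7, 22 and 0 counts in wild-type and 0, 6, 0, 8 and 0 in *Orco* mutants, but 1186 of its 1562 exon bases are shared with the neuronal cytoskeleton gene *futsch* on the same strand, so its counts are uncertain.

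Neighbouring Gr genes sometimes shared a library, a pattern named after the values were seen. *Gr58a*, *Gr58b* and *Gr58c* lie side by side on 2R (21976662 to 21981099). In *Orco* mutant library 1 they had 40, 50 and 49 counts, while all other libraries together had 11, 1 and 6. The *Gr36* genes on 2L behaved differently: *Gr36b* had 96 of its counts in *Orco* mutant library 3, *Gr36c* had 46 in library 1, and *Gr36a* had 3 in wild-type library 4. Neighbours in the *Gr36* group were therefore high in different libraries.

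With at least 10 counts in all, 3 of 32 Gr genes were seen in wild-type only and 10 in *Orco* mutants only, and 1 and 7 of 19 Ir genes. Over all genes with at least 10 counts the background was 1.29% and 5.38%, and over those of them that were left out of the test 5.15% and 21.6%. The 32 Gr and 19 Ir genes include the 8 and 1 that were tested, all seen in both genotypes. Their shares are therefore lower than they would be on the footing of the second background. *Gr5a*, *Gr92a* and *Gr59b*, the wild-type genes, each came from 1 library, with 12, 22 and 24 counts. Of the 10 mutant-only Gr genes 2 came from 1 library, *Gr98a* with 24 counts and *Gr94a* with 14, and 2 from 3 libraries (*Gr36b* and *Gr58a*). None of these 13 Gr genes was present in every library of its genotype.

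*Ir94e* was the Ir gene with the highest level and the only one tested. It lies on 3R (23405509 to 23407402) and is known in adults from taste neurons of the labellum. It had 122, 0, 0 and 0 counts in wild-type and 83, 119, 0, 22 and 134 in *Orco* mutant libraries. All but 1 of the 5 mutant libraries held it, at 2.78 to 33.2 CPM, and 1 wild-type library of 4 did so, at 27.2 CPM. Mean levels were 6.81 ± 13.6 CPM (SD, n = 4) and 11.2 ± 13.1 CPM (SD, n = 5), with a log2 fold change of 0.72 (SE 1.92, 95% interval -3.45 to 4.89). Without wild-type library 1, the only wild-type library that held the gene, the fitted change became 9.24, a value that depends on the small prior count of the fit. Without *Orco* mutant library 5 it became -0.25. *Ir94d*, which ends next to it, had no count. Of the other genes with this number, which lie further away on 3R, *Ir94h* had 13 counts in *Orco* mutant library 1, *Ir94c* had 2 in library 4 and *Ir94a*, *Ir94b*, *Ir94f* and *Ir94g* had none.

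*Ir87a* had the next highest Ir level and was seen in *Orco* mutants only. It lies on 3R (13420279 to 13423140) and had 0 counts in all 4 wild-type libraries and 188, 64, 0, 36 and 0 in *Orco* mutant libraries. The mutant libraries without it overlapped with wild-type. It was not in the test, and without a filter on low counts its unadjusted p was 0.00757 and its adjusted p 0.591 by edgeR. *Ir68b* was the counterpart, with 108 counts in wild-type library 4 and none elsewhere.

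The co-receptors that tuning Ir subunits need were present in nearly all libraries, with 1 exception. *Ir25a* had 148, 396, 97 and 657 counts in wild-type and 478, 846, 776, 698 and 257 in *Orco* mutants. *Ir76b* had 112, 145, 172 and 128 in wild-type and 315, 264, 4, 319 and 82 in *Orco* mutants. *Ir93a* had 200, 322, 341 and 477 in wild-type and 106, 836, 763, 939 and 257 in *Orco* mutants. *Ir8a*, the co-receptor for acid sensing, had 0 counts in all 9 libraries. None of the 4 tested genes on the 6-gene list from which they come passed the test. Nor did the 1 tested gene of 6 salt and water taste channels of the pickpocket family, whose summed level was 38.7 to 123 CPM in wild-type and 4.13 to 83.1 CPM in *Orco* mutant libraries. Per kilobase of the longest transcript, mean levels in wild-type and *Orco* mutant organs were 15.2 and 28.6 CPM for *Ir25a*, 11.2 and 10.5 CPM for *Ir76b* and 21.5 and 34.6 CPM for *Ir93a*, against 3.71 and 6.08 CPM for *Ir94e*, whose means include 3 wild-type libraries and 1 mutant library at 0. *Gr68a* was at 21.3 and 7.50 CPM per kilobase. *Gr66a* was at 7.67 and 11.2 and *Gr33a* at 6.49 and 5.60 CPM per kilobase, and *Orco* was at 150 CPM per kilobase in wild-type organs.

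The antennal tuning Ir genes, whose neurons sit in the antenna of adults, were detected in 6 of 11 cases and never regularly. *Ir64a*, an acid receptor subunit of adults that acts with *Ir8a*, had 71 counts in *Orco* mutant library 1 and none elsewhere. *Ir40a*, which serves the sensing of dry air with *Ir25a* and *Ir93a*, had 93 counts in wild-type library 4 and 20 in *Orco* mutant library 4, all from 1 of its 3 transcripts (RF). *Ir92a*, an amine receptor subunit, had 17 counts in wild-type library 3, 19 in *Orco* mutant library 2 and 6 in library 4. *Ir76a* was unlike these, since it was low but present in all wild-type libraries, with 1, 3, 2 and 2 counts, and in 1 of 5 mutant libraries, with 0, 0, 0, 2 and 0. At such counts the presence of a gene in a library is close to the limit of detection. *Ir76a* also shares 297 of its 2109 exon bases with *CG14102* on the opposite strand. *CG14102* had 9, 115, 0 and 30 counts in wild-type and 0, 23, 0, 21 and 0 in *Orco* mutants, and its part in the *Ir76a* counts was not tested. *Ir41a* had 3, 31 and 2 counts in *Orco* mutant libraries 2, 3 and 4, and *Ir75d* had 4 counts in wild-type library 1. *Ir31a*, *Ir75a*, *Ir75b*, *Ir75c* and *Ir84a*, which in adults sense acids or other odours together with *Ir8a*, had no count.

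Of the other Ir genes, many are known from taste neurons or have no settled role, and those described next were each found in 1 to 3 libraries. *Ir7b* had 27 counts in wild-type library 1 and 19 and 48 in *Orco* mutant libraries 4 and 5. *Ir67a* had 69 in wild-type library 2 and 8 in *Orco* mutant library 2. *Ir47a* had 17 and 43 in *Orco* mutant libraries 4 and 5. *Ir7b* and *Ir47a* shared *Orco* mutant libraries 4 and 5, and *Ir67a* was in neither. *Ir51a* had 7 and 40 counts in wild-type libraries 1 and 4 and 1 in *Orco* mutant library 4, and its neighbour *Ir51b* had 15 in wild-type library 1 and 1 in *Orco* mutant library 4. *Ir56b* and *Ir56c*, also neighbours, had 28 and 14 counts in *Orco* mutant library 2, and *Ir56c* had 25 in wild-type library 1. *Ir60a* had 1 count in wild-type library 3 and 12 and 7 in *Orco* mutant libraries 2 and 4. Both *Ir85a* (20 counts in wild-type library 3, 4 and 3 in *Orco* mutant libraries 2 and 4) and *Ir52b* (26 counts in *Orco* mutant library 1) were likewise sparse. *Ir85a* shares 232 exon bases with the abundant genes *Pif1A* and *Pif1B* on the opposite strand.

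Undetected members were 14 Gr and 30 Ir genes. Among the Gr genes were 5 of the *Gr64* cluster, *Gr22a*, *Gr22b* and *Gr22d*, *Gr98b* and *Gr98d*, and the single genes *Gr23a*, *Gr47a*, *Gr89a* and *Gr93c*. Of all 120 members, 22 share exon bases with another annotated gene, 13 of them detected, and a further 14 lie within a larger gene with no exon base shared.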

How the data were processed

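RNA-Seq libraries of dorsal organs from 4 wild-type and 5 *Orco* mutant samples were made with Smart-seq2. Per the study's methods and processing notes, the authors demultiplexed single-end reads with CASAVA 1.8.2, removed adapters with cutadapt 1.9.1, and used kallisto 0.43.0 with the FlyBase 6.10 transcriptome of 34416 transcripts. The authors deposited estimated counts per transcript and per gene for each library, not normalized. Another mutant sample, set aside in the study for few reads, was not analysed here.

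After rounding of each value to an integer, filterByExpr (minimum count 10, minimum total 15) selected genes, and libraries were scaled with TMM and compared with the quasi-likelihood test of edgeR 4.0.16 in R 4.3.3, without a block, and p-values were adjusted by Benjamini and Hochberg over all 8160 genes tested (threshold 0.05). Printed log2 fold changes hold the prior count of edgeR. SE and 95% interval were derived from the fitted coefficient, which lacks this prior, and may be off centre. Detection and summed levels carry no test. Nothing but separate isolation is known of the samples, so p-values measure the spread between them. The members, gene lists and rules were chosen with earlier results of these data known.

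Named genes were all members tested, the 15 Gr and 15 Ir genes with the highest summed count, preset bitter, sugar, carbon dioxide, *Gr28* and antennal Ir genes, *Gr10a* and, as partners, *Orco* and the co-receptors; those with more than 1 transcript and at least 10 counts also had their transcripts examined. Others were named after their values were seen. Positions and exon overlaps follow the Release 6 genome as annotated in Ensembl 115. Alternatives tried were DESeq2 1.42.0, RLE size factors, other filters, the replicate number as a block, other detection minimums, a common depth of 4090489 counts, other scalings, the sum without its highest member, and leaving out each library. Sequences are not shown.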

Additional observations from a re-analysis of the deposited data

Results flagged for a closer look

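The levels of the 9 tested members within each genotype, the numbers of detected genes and summed levels of each family, and the median count of a detected member, were examined for a single library far from the rest, in 28 groups of 4 or 5 libraries. Chance alone places about 1 in 20 such groups beyond the limit used. Of the 28 groups, 3 were beyond it. *Ir94e* was at 27.2 CPM in wild-type library 1 and at 0 in the other 3 wild-type libraries. *Gr28b* was at 4.23 CPM in wild-type library 3, against 0 to 0.446 CPM in the other wild-type libraries. *Gr10a*, which shares all of its reads with *Or10a*, was at 23.7 CPM in *Orco* mutant library 3, against 0 to 5.95 CPM in the other mutant libraries. Each of these 3 genes overlapped between the genotypes.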

How the results depend on the processing

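No Gr or Ir gene passed the test under any of the 14 alternatives tried for each family, DESeq2 and the 9 fits without 1 library included. The fits differed over all genes, with 3 calls in the main fit, 5 without a filter, 4 with the replicate number as a block and 61 with DESeq2. Same-numbered samples of the genotypes did not deviate together over the tested genes (r of 0.0284, -0.103, -0.0181 and -0.0199). With the wide spread between samples, this cannot exclude that same-numbered samples were prepared together. With the block the log2 fold change of *Gr66a* was -0.92, the only one of the 9 tested members to change sign under it, and that of *Gr68a* was -6.90, of *Ir94e* 4.31, of *Gr28b* 3.78, of *Gr33a* -0.50, of *Gr93a* 1.95 and of *Gr10a* 0.47. Leaving out 1 library gave -0.58 to 1.24 for *Gr66a*, -0.75 to 0.22 for *Gr33a*, -1.80 to 0.14 for *Gr32a*, -1.55 to 0.85 for *Gr97a* and -0.25 to 9.24 for *Ir94e*. The other 4 kept their sign, at -2.71 to -0.94 (*Gr68a*), 0.35 to 1.69 (*Gr93a*), 0.38 to 1.76 (*Gr10a*) and 1.55 to 5.26 (*Gr28b*). No value could be had for *Gr97a* under the filter of 10 counts in 5 libraries or without *Orco* mutant library 2 or 4, nor for *Gr28b* without *Orco* mutant library 1 or 2, since they then failed the filter.

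At 10 counts the mean number of Gr genes in wild-type was 8.75. Totals without rRNA genes raised the summed levels to 155.7 CPM (Gr, wild-type), 146.2 (Gr, *Orco* mutant), 43.6 (Ir, wild-type) and 51.4 (Ir, *Orco* mutant). Leaving out 1 library gave 11.3 to 13.7 and 12.75 to 19.5 Gr genes, 3.67 to 5.67 and 5.50 to 10 Ir genes, 72.9 to 102.3 and 79.2 to 91.998 CPM of Gr, and 17.6 to 29.9 and 24.5 to 36.3 CPM of Ir (wild-type and *Orco* mutant). Without *Orco* mutant library 4, a choice made after seeing the data, 7 Ir genes were in both genotypes and 8 in wild-type only, against 13 and 2 with all libraries or without library 3. Over all genes, 10185 were in both genotypes and 738 in wild-type only without library 4, against 10458 and 465 with all libraries. The cause of these shifts was not tested. Depth limits detection: a gene at 0 may be present at up to 0.246 to 0.827 CPM in a library.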
